A study of Mus musculus with 6 samples.

Results

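The interferon-gamma inducible GTPases described here are 10 mouse genes, 5 of the immunity-related GTPase (IRG) family (Igtp, Irgm1, Irgm2, Iigp1 and Gm4951) and 5 of the guanylate-binding protein (GBP) family (Gbp2, Gbp3, Gbp5, Gbp6 and Gbp7). They were found by gene symbol, each in 1 of the 21899 rows of the expression table, and all 10 passed a filter of a mean of 1 FPKM that kept 10853 genes. FPKM is the number of fragments counted on a gene relative to the length of its exons and to all fragments counted in the sample. The genes were chosen by family and with their differences in level between these 6 samples known, so their levels and differences are given as a description, with no test.

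RNA was sequenced from tumors grown under the skin of male C57BL/6 mice from LLC-luc cells, a Lewis lung carcinoma line that carries luciferase. The Laser group was irradiated without a photosensitizer and, by the study's methods, received saline. In the PC-La group, phycocyanin (PC), a light-absorbing protein of Spirulina, was given before irradiation, by injection into the tumor per the labels and beneath or beside it by the study's text. Selenium-enriched phycocyanin (Se-PC) took its place in the SePC-La group. Each group has 2 samples, and per the labels a 620 nm laser was applied for 10 min at 4 h after injections given every 5 days. All groups were irradiated, so none shows the level in an untreated tumor. The labels give no age and do not say whether the 2 samples of a group are separate mice, so the spread between them may be technical.

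Interferon-gamma, made mainly by T cells and natural killer cells, binds a receptor that signals through the kinases JAK1 and JAK2. The signal reaches target genes at GAS elements, and the interferon regulatory factors that are induced in turn, such as IRF1, bind ISRE elements. IRG and GBP proteins are among the most strongly induced products in mouse cells, in macrophages and in many cells that are not immune cells. Effector IRGs such as Iigp1 coat the vacuoles of intracellular parasites and break them, while the regulatory IRGs Irgm1, Irgm2 and Igtp (also called Irgm3) sit on the membranes of the cell and hold the effectors in check. GBPs assemble on pathogen membranes and help inflammasomes to form.

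The genes lie in clusters of related copies. In GENCODE M21 (genome build GRCm38), Irgm1 lies at chr11:48861968-48871683 on the minus strand. Igtp at chr11:58199556-58207591 and Irgm2 at chr11:58199618-58222782 lie on the plus strand, and their annotated spans overlap. Gbp5 (chr3:142493978-142522344), Gbp7 (chr3:142530342-142550149), Gbp3 (chr3:142560026-142573209) and Gbp2 (chr3:142620602-142638008) follow each other on the plus strand. Gbp6 (chr5:105270702-105293698, minus strand) belongs to a further GBP cluster, and Iigp1 and Gm4951 lie near each other on a further chromosome. Close copies can share reads. Of all 50-base stretches of the longest transcript, 59.7% in Gbp6 also occur in other genes, mostly Gm43302, Gbp10 and Gbp11. The shares are 12.8% in Gbp7, 12.3% in Igtp (with Irgm2), 7.36% in Irgm2 and between 0 and 4.79% in the other 6 genes. The split of reads between Gbp6 and its copies, and between Igtp and Irgm2, is therefore uncertain.

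Promoter windows of 250 bases before to 50 after the start were taken from RefSeq (GRCm38.p6), where 7 of the 10 genes were matched (all but Gbp6, Iigp1 and Gm4951). Both strands were searched for the ISRE letters GAAANNGAAA and the GAS letters TTCNNNGAA, whose matches did not overlap each other in the stretches printed here. All 7 genes hold an ISRE match, against 2.98% of all 32851 windows. A gene was counted if any of its windows held a match, and a further window of Gbp3 holds none. The motifs are not particular to the 10 genes. Of 9 other family genes searched, 4 hold an ISRE match and 3 hold both motifs (Tgtp1, Tgtp2 and Gm12250), while Ifi47 holds neither. Both motifs are held by 4 of the 7 genes (Igtp, Irgm2, Gbp5 and Gbp7), against 0.332% of the windows, and 7.02% of the windows hold GAS letters. The regulatory IRGs Igtp and Irgm2 hold the pair side by side in 60-base stretches that are identical at 58 bases, and these are shown with both matches in capitals.
Igtp, chr11:58199492-58199551, plus strand: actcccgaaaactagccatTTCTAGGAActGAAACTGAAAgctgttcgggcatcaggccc
Irgm2, chr11:58214883-58214942, plus strand: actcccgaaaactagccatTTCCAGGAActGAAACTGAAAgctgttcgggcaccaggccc

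The ISRE matches of the other 5 genes are shown in 30-base stretches, each on the strand of its gene, with the matching letters in capitals. A match on the opposite strand reads TTTCNNTTTC, and in Irgm1 and Gbp3 a pair of matches overlap.
Irgm1, chr11:48871428-48871457, minus strand: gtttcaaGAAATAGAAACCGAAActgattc
Gbp2, chr3:142620594-142620623, plus strand: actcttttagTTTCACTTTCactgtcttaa
Gbp3, chr3:142559992-142560021, plus strand: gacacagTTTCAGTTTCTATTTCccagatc
Gbp5, chr3:142496759-142496788, plus strand: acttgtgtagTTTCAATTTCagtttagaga
Gbp7, chr3:142530273-142530302, plus strand: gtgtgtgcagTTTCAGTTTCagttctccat

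In 6 of the 7 genes the ISRE letters begin between 24 and 64 bases before the RefSeq start, and in Gbp5 they begin 165 bases before it. In GENCODE M21, annotated exons cover 30 bases of the Irgm1 stretch, its full length, and 22 bases of the Gbp2 stretch. A match describes letters only and is not evidence of binding.

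**Figure D1:**
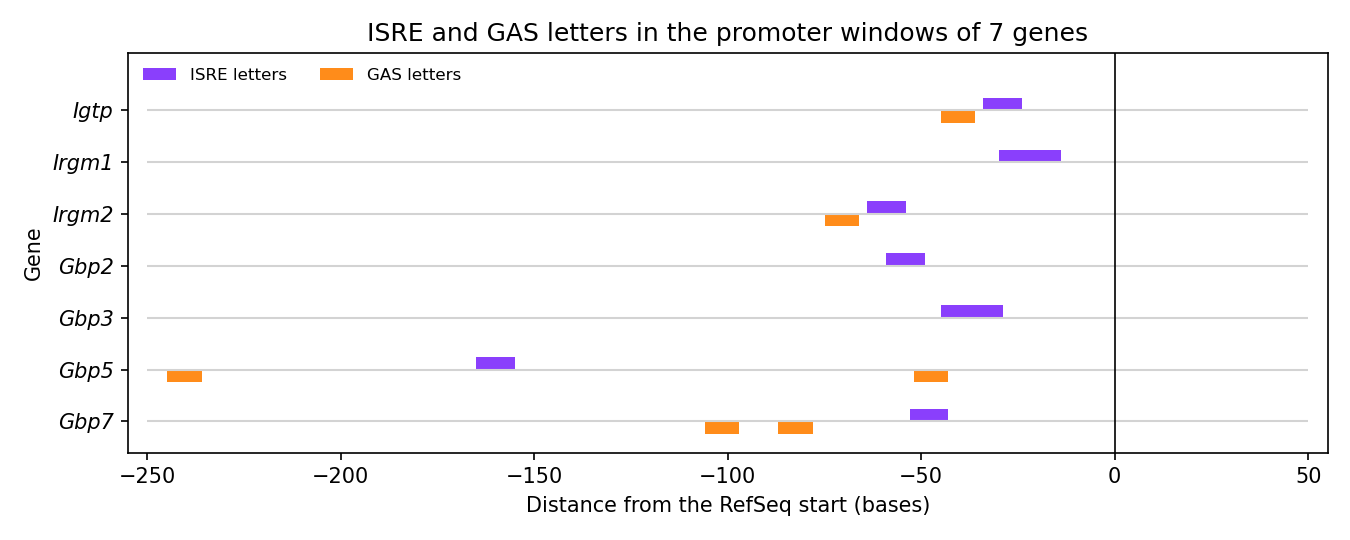
Positions of the ISRE letters (purple) and GAS letters (orange) in the promoter windows of 7 genes, as the distance in bases from the RefSeq start (0, black line). ISRE letters appear in all 7 genes, within 64 bases before the start in every gene but Gbp5.

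Depth and sample make-up bear on every value. Reads recovered from the table totalled between 14447791 and 17649490 per sample, and each of the 10 genes held between 247 (Gbp6) and 10419 (Gbp2) reads per sample. Laser replicate 2 stood apart by skeletal muscle genes, whose summed level of 8 genes was 158 FPKM there, 24.7 in Laser replicate 1 and between 1.72 and 7.41 in the other 4 samples. The tumor label was checked against Krt8, Krt18 and Vim, which were at 78.1 FPKM or more in every sample, while the lung epithelial genes Sftpc, Epcam and Cdh1 were at 1.17 FPKM or less. Of 6 keratinocyte genes, Krt5, Krt14, Krt1, Krtdap and Dsp were at 0 in all samples, and Krt10 was between 0.253 and 0.666 FPKM. In bulk tumor RNA, fewer cells of a type and less RNA per cell cannot be told apart.

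The first comparison asks how PC with light differed from light alone. All 10 genes were higher in both PC-La samples than in both Laser samples, where 20.4% of all tested genes were so. The median of the 10 differences was 0.93 on the log2(FPKM + 1) scale, a scale that understates the change of low genes, beside 0.00 over all genes tested. The cut-offs that the study set for a test on counts were applied to the limma fit as the criterion: a log2 difference over 1 and an unadjusted p under 0.05. By it, 3 of the 10 genes were counted (Iigp1, Gm4951 and Igtp), beside 0.866% of all genes in that direction. Since the genes were chosen with these values known, the counts carry no test.

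Among the IRG effectors, Iigp1 was at 29.1 and 43.3 FPKM under Laser, 72.0 and 93.8 under PC-La, and 45.9 and 43.6 under SePC-La. Only the PC-La samples were clearly apart, and the lower SePC-La value was nearly equal to the higher Laser value. The difference between PC-La and Laser was 1.19 ± 0.22 (log2, SE of the fit), the largest of the 10 on this scale, while by the ratio of mean FPKM Gbp6 (2.39) was above Iigp1 (2.29). Gm4951, an IRG gene of the same cluster as Iigp1, was at 8.47 and 7.56 FPKM under Laser, 17.1 and 19.4 under PC-La, and 9.26 and 10.9 under SePC-La. Its difference of 1.09 ± 0.14 between PC-La and Laser stayed above 1 whichever sample was left out, the only 1 of the 10 genes for which the criterion was met in every such fit.

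Igtp, a regulatory IRG, was at 45.7 and 56.7 FPKM under Laser, 99.9 and 107 under PC-La, and 88.2 and 85.5 under SePC-La. Both phycocyanin groups lay above Laser without overlap, and SePC-La lay between the others, with log2 differences from Laser of 1.01 ± 0.14 for PC-La and 0.76 ± 0.14 for SePC-La. Irgm2 was at 24.9 and 22.1 FPKM under Laser, 47.5 and 44.5 under PC-La, and 32.2 and 25.2 under SePC-La. The SePC-La samples of Irgm2, which shares the promoter stretch printed above with Igtp, lay close to Laser, with differences from Laser of 0.94 ± 0.15 for PC-La and 0.27 ± 0.15 for SePC-La, the latter 0.10 without SePC-La replicate 1 and 0.44 without SePC-La replicate 2. Irgm1, which also acts in autophagy and mitochondrial quality control, was at 22.7 and 32.0 FPKM under Laser, 40.9 and 43.1 under PC-La, and 38.1 and 33.4 under SePC-La. The groups of Irgm1 did not overlap, but the gap between the higher Laser and the lower SePC-La sample was small, and the differences from Laser were 0.62 ± 0.18 and 0.39 ± 0.18. Without Laser replicate 1 they were 0.38 and 0.15, and leaving out Laser replicate 2 gave 0.86 and 0.63.

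Gbp2 was the most abundant of the 10 genes, at 103 and 209 FPKM under Laser, 210 and 258 under PC-La, and 276 and 237 under SePC-La. It supplied between 36.1% and 48.5% of the summed FPKM of the 10 genes in a sample. The Laser samples of Gbp2 lay far apart, and the higher one nearly equalled the lower PC-La sample. Its difference between PC-La and Laser of 0.66 ± 0.33 was 0.15 without Laser replicate 1 and 1.17 when Laser replicate 2 was left out, and that between SePC-La and Laser of 0.80 ± 0.33 was 0.29 and 1.31.

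Gbp3 was at 24.3 and 29.1 FPKM under Laser, 45.3 and 57.2 under PC-La, and 42.7 and 39.9 under SePC-La. The 3 groups did not overlap, and PC-La was highest, with differences from Laser of 0.91 ± 0.16 for PC-La and 0.62 ± 0.16 for SePC-La. Gbp7 was at 17.7 and 23.3 FPKM under Laser, 27.0 and 32.7 under PC-La, and 25.2 and 24.1 under SePC-La. SePC-La was only slightly above the higher Laser sample of Gbp7, at a difference of 0.27 ± 0.17, and PC-La differed from Laser by 0.53 ± 0.17. Without Laser replicate 1 these values were 0.08 and 0.34, and the former was 0.46 when Laser replicate 2 was left out.

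Gbp5, which promotes inflammasome assembly, was at 5.97 and 5.41 FPKM under Laser, 7.69 and 10.1 under PC-La, and 9.02 and 8.34 under SePC-La. Both phycocyanin groups were above Laser to nearly the same extent, by 0.55 ± 0.16 and 0.53 ± 0.16, and they overlapped each other. Gbp6, the lowest of the 10, was at 2.64 and 2.87 FPKM under Laser, 5.55 and 7.61 under PC-La, and 3.39 and 3.65 under SePC-La. Its samples fell into 3 separate levels with SePC-La close to Laser. The differences of Gbp6 from Laser were 1.00 ± 0.17 for PC-La and 0.27 ± 0.17 for SePC-La. Before rounding, the former was just outside the criterion, while Igtp, at 1.01, was just inside. Both depended on the settings. For PC-La against Laser, Gbp6 was at 1.21 with a pseudocount of 0.1 and at 1.23 with voom. Igtp was at 0.98 with median-ratio scaling and at 1.00 with quantile normalization.

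**Figure D2:**
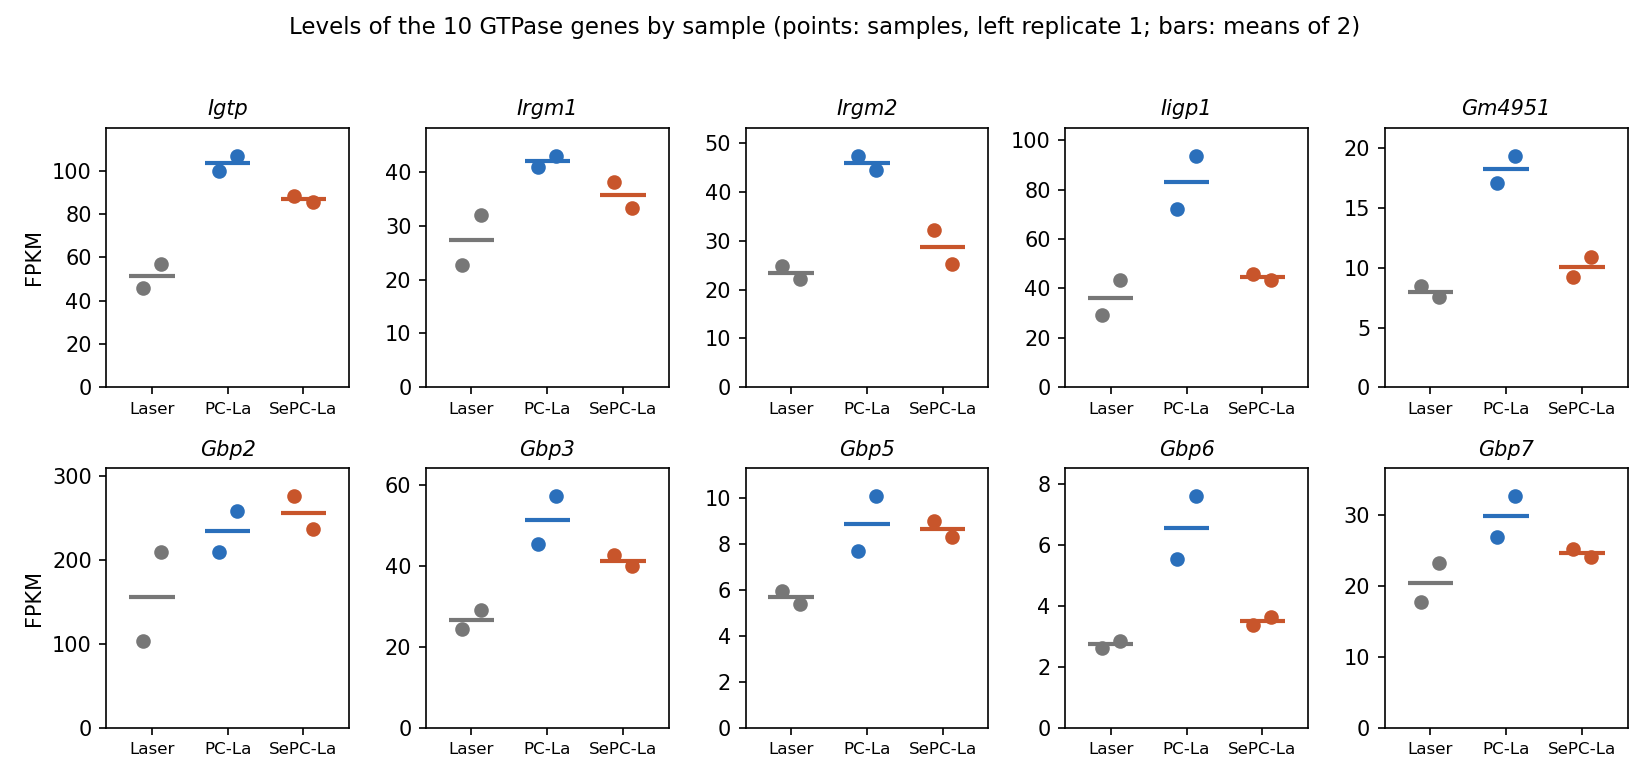
FPKM of each gene (linear axis from 0) in the Laser, PC-La and SePC-La samples, with points for single samples and bars for the mean of 2. The PC-La samples are above the Laser samples in every panel, and the SePC-La samples of Iigp1 (45.9 and 43.6) lie near Laser while those of Gbp2 (276 and 237) lie near PC-La.

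The order of group means was Laser, SePC-La, PC-La in 9 of the 10 genes, and Laser, PC-La, SePC-La in Gbp2. Summed over the 10 genes, the level was 284 and 432 FPKM under Laser, 572 and 673 under PC-La, and 570 and 512 under SePC-La. Without Gbp2 the sums were 182 and 222, 363 and 415, and 294 and 275, so SePC-La then lay between the other groups. The 5 IRG genes summed to 131 and 162 FPKM under Laser, 277 and 307 under PC-La, and 214 and 199 under SePC-La. The 5 GBP genes summed to 153 and 270, 295 and 366, and 356 and 313, where PC-La and SePC-La overlapped.

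In the second comparison, Se-PC with light against light alone, all 10 genes were again higher in both samples than in both Laser samples, beside 15.0% of all tested genes. The margins were smaller. The median difference was 0.36, beside -0.06 over all genes, and the values ran from 0.27 (Irgm2, Gbp6 and Gbp7) to 0.80 (Gbp2). None of the 10 reached the criterion, beside 0.544% of all genes. Both comparisons use the same Laser samples, so they are not independent. For Iigp1 the difference of 0.32 ± 0.22 was 0.05 without Laser replicate 1 and 0.60 when Laser replicate 2 was left out.

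The third comparison sets the selenium-enriched protein against plain phycocyanin, both irradiated. In 8 of the 10 genes both SePC-La samples were below both PC-La samples, but 39.5% of all tested genes were so, and Gbp2 and Gbp5 overlapped. The median difference was -0.28, beside -0.07 over all genes, and was -0.17 with median-ratio scaling of the samples and -0.36 with quantile normalization. For description, and after the values were seen, the genes were split into a set with differences of -0.67 to -0.86 and a set nearer 0. The former holds Iigp1 (-0.86 ± 0.22), Gm4951 (-0.79 ± 0.14), Gbp6 (-0.73 ± 0.17) and Irgm2 (-0.67 ± 0.15). The latter holds Gbp3 (-0.29 ± 0.16), Gbp7 (-0.26 ± 0.17), Igtp (-0.25 ± 0.14), Irgm1 (-0.23 ± 0.18), Gbp5 (-0.02 ± 0.16) and Gbp2 (0.14 ± 0.33). With median-ratio scaling Gbp3, Gbp7, Igtp and Irgm1 were at -0.19, -0.16, -0.14 and -0.13. Without PC-La replicate 2 Gbp3 and Gbp7 were both at -0.13, without PC-La replicate 1 Gbp3 was at -0.46, and Irgm1 was at -0.14 without SePC-La replicate 2. Over the samples left out, Irgm2 ran from -0.84 to -0.50 and Gbp6 from -0.93 to -0.53, so the width of the gap between the sets was not stable. The sets did not cross within any of these fits. They were nearest without PC-La replicate 1, with Irgm2 at -0.63 and Gbp3 at -0.46. The sign of Gbp5 and Gbp2 changed with the scaling, that of Gbp5 to 0.07 with either method and Gbp2 to -0.02 with quantile normalization. None of the 10 met the criterion in this comparison, which 1.18% of all genes met as higher and 1.8% as lower in SePC-La. With median-ratio scaling the counts of all genes turned from 128 higher and 195 lower to 166 and 149.

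**Figure D3:**
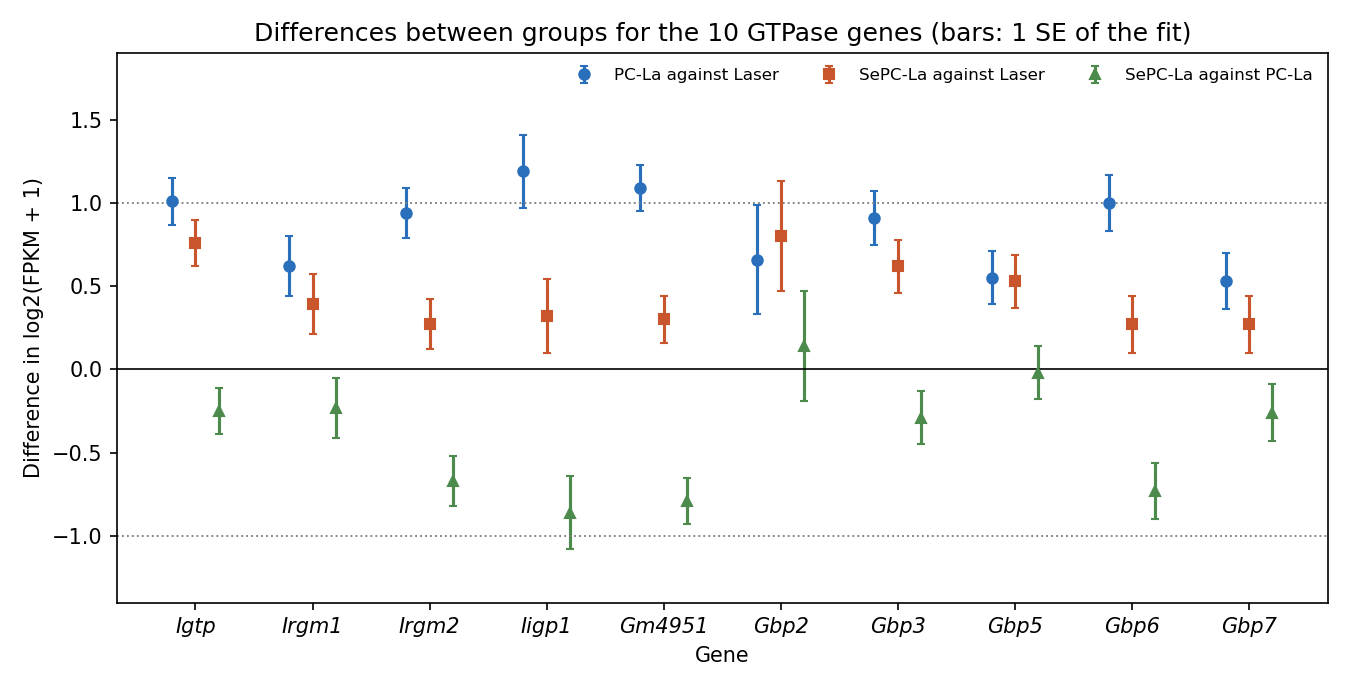
Difference in log2(FPKM + 1) for each gene in the 3 comparisons, with bars of 1 SE of the fit over all samples and dotted lines at the limit of 1 of the criterion. PC-La against Laser (circles) lies between 0.53 and 1.19, SePC-La against Laser (squares) between 0.27 and 0.80, and SePC-La against PC-La (triangles) between -0.86 and 0.14.

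The other genes of both families were examined next. In the fit reported, no tested gene had an adjusted p under 0.05 (limma, Benjamini-Hochberg over 10853 genes) in any comparison, and voom on recovered reads also gave 0. For the comparisons with Laser this changed when Laser replicate 1 was left out. For SePC-La against PC-La this depended on the settings. There, 3 genes held it with a minimum of 5 FPKM, 6 with median-ratio scaling, 8 with quantile normalization and 637 with only the 4 samples compared. Unadjusted p-values under 0.05 were held by 5.78% of all genes for PC-La against Laser, 12.1% for SePC-La against Laser and 24.3% for SePC-La against PC-La. Of the other IRG genes, 9 have a row and 7 passed the filter. Their median difference between PC-La and Laser was 0.98, and 3 met the criterion as higher in PC-La: F830016B08Rik (1.08 ± 0.19), Tgtp2 (1.06 ± 0.17) and Ifi47 (1.05 ± 0.20), with the smallest adjusted p of the list at 0.419. Without PC-La replicate 2 all 3 missed the limit of 1, at 0.86, 0.90 and 0.86. F830016B08Rik also missed it without Laser replicate 2 (0.99), and Tgtp2 without Laser replicate 1 (0.97).

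Tgtp1 and Tgtp2, IRG effectors that restrict Toxoplasma, share 91.4% and 90.6% of their 50-base stretches with other genes, chiefly each other. Tgtp1 was at 4.96 and 6.93 FPKM under Laser, 11.9 and 13.3 under PC-La, and 10.5 and 8.27 under SePC-La. Tgtp2 was at 9.18 and 10.6, 19.3 and 24.4, and 15.5 and 13.0 FPKM, so SePC-La lay between the other groups in both. Irgq, a distant member of the family, was at 4.63 and 3.37 FPKM under Laser, 4.43 and 4.27 under PC-La, and 2.43 and 2.63 under SePC-La. Gm5431 (0.29 ± 0.19) and 9930111J21Rik2 (0.54 ± 0.20) did not meet the criterion between PC-La and Laser, and Irgc1 and 9930111J21Rik1 were under the filter.

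F830016B08Rik, which lies between Gm4951 and Iigp1, was at 3.42 and 2.90 FPKM under Laser, 6.52 and 9.24 under PC-La, and 1.60 and 1.36 under SePC-La. It was the family gene with the lowest SePC-La level relative to Laser, at -0.75 ± 0.19 (-1.05 and past the criterion with a pseudocount of 0.1), and the difference between SePC-La and PC-La was -1.83 ± 0.19 (limma, unadjusted p = 4.96e-05, adjusted p = 0.0763). This difference ran from -2.05 to -1.61 when single samples were left out. Its neighbors Gm4951 and Iigp1 were not below Laser in SePC-La, at 0.30 and 0.32.

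All 5 other GBP genes with a row passed the filter, and 4 met the criterion as higher in PC-La than in Laser (smallest adjusted p of the list 0.43). These were Gbp2b at 1.59 ± 0.41, Gbp8 at 1.28 ± 0.35, Gbp4 at 1.13 ± 0.21 and Gbp9 at 1.05 ± 0.25. Without Laser replicate 2 the differences of Gbp8, Gbp9 and Gbp4 were 0.71, 0.67 and 0.97, and the criterion was no longer met. Without PC-La replicate 2 the criterion was not met by Gbp4 (0.86), Gbp9 (0.94) and Gbp8 (1.20, by its p). Gbp10, which shares 82.5% of its stretches with other genes, differed by 0.95 ± 0.18, and by 1.67 with a pseudocount of 0.1.

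Gbp2b, a relative of Gbp2 next to it on chromosome 3, was at 0.789 and 2.31 FPKM under Laser, 4.69 and 8.43 under PC-La, and 2.16 and 0.974 under SePC-La. SePC-La was in the range of Laser for Gbp2b, and the difference between SePC-La and PC-La was -1.55 ± 0.41 (limma, unadjusted p = 0.00888, adjusted p = 0.134). It was -1.21 and not past the criterion without SePC-La replicate 2. Gbp2, by contrast, was at 276 and 237 FPKM in SePC-La, above or within its PC-La range.

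**Figure D4:**
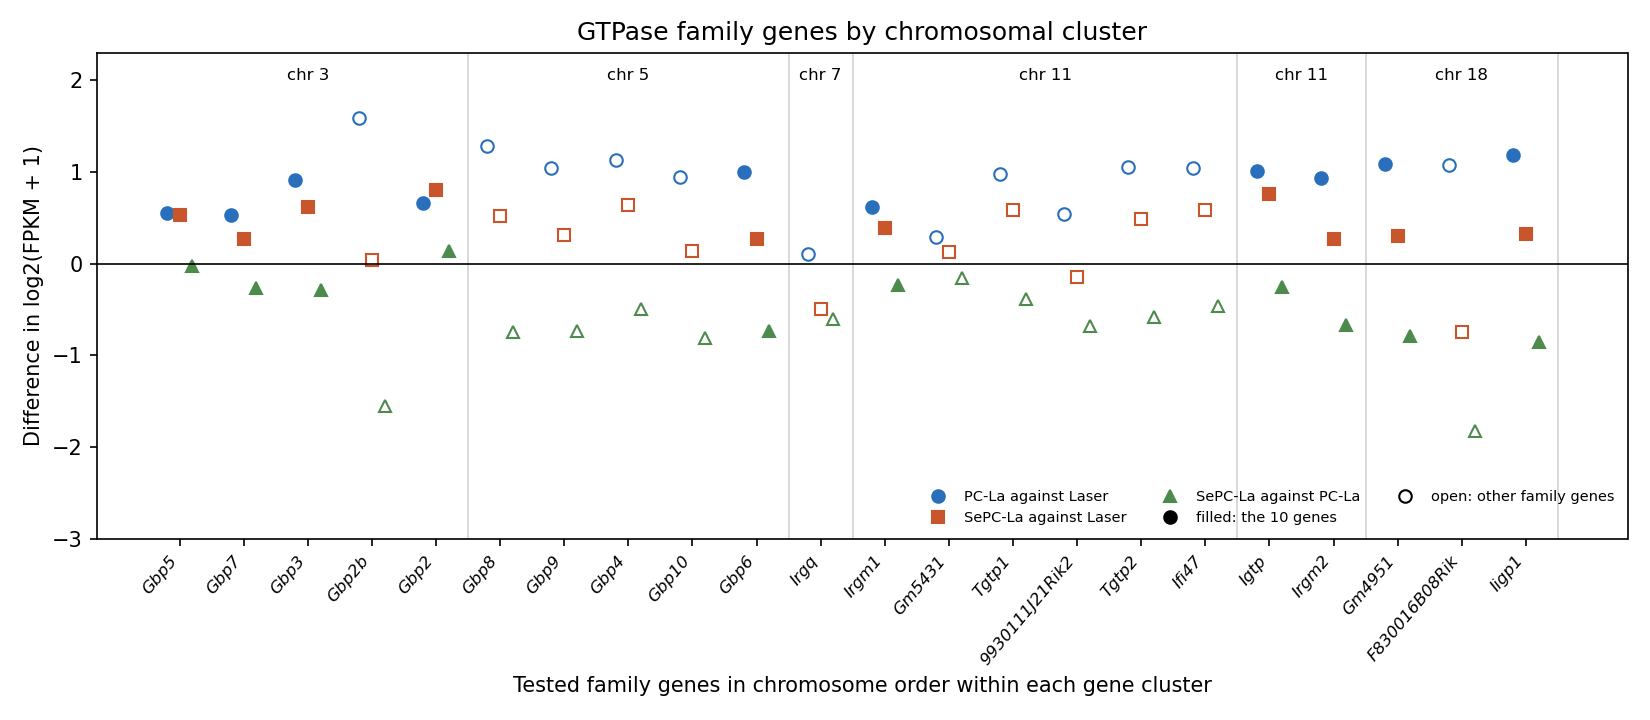
Differences in log2(FPKM + 1) for the tested IRG and GBP genes in chromosome order, with filled symbols for the 10 genes and open symbols for other family genes. In the fit reported, PC-La against Laser (circles) is above 0 for every gene tested, and SePC-La against PC-La (triangles) reaches -1.83 at F830016B08Rik and -1.55 at Gbp2b.

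By cluster, the median difference between PC-La and Laser was 1.09 on chromosome 18 (3 genes), 1.05 on chromosome 5 (5 genes), 0.97 for Igtp and Irgm2, 0.80 for the cluster of Irgm1 (6 tested genes) and 0.66 on chromosome 3 (5 genes). Tested genes within 500 kb of these clusters that belong to neither family had medians between -0.08 and 0.20. Of these genes, Cd74 near the cluster on chromosome 18 was at 2.35 ± 0.58 for PC-La against Laser. It was at -1.73 ± 0.58 for SePC-La against PC-La. Both values lay beyond any of the 10 genes, and the Laser samples of Cd74 were far apart, at 194 and 55.3 FPKM. The pair Irgc1 and Irgq on chromosome 7 has 1 tested gene, Irgq, at 0.11 and -0.60. For SePC-La against PC-La the medians of the other 5 clusters were -0.86, -0.73, -0.46, -0.43 and -0.26 in the same order.

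The genes upstream of the GTPases were then read in the order of the pathway. Ifng, the ligand, was at 0.737 and 0.744 FPKM under Laser, 0.889 and 0.774 under PC-La, and 0.748 and 0.973 under SePC-La. Both phycocyanin groups were above Laser for Ifng by small margins, at a level under the filter, so it was not tested. Of the cytokines that induce it, Il15, Il18 and Il27 passed the filter and none met the criterion. Il15, a growth factor of natural killer cells, was at 2.48 and 1.85 FPKM under Laser, 3.99 and 4.29 under PC-La, and 2.88 and 3.65 under SePC-La, a difference of 0.71 ± 0.17 between PC-La and Laser.

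Part of the receptor and signalling list is given here, and the calls of the list as a whole are not reported. The receptor chain Ifngr1 was at 36.8 and 49.9 FPKM under Laser, 43.6 and 46.3 under PC-La, and 26.9 and 40.9 under SePC-La. The chain Ifngr2 lay between 13.5 and 17.3 FPKM in all samples, so the receptor levels overlapped between Laser and PC-La. Jak2, the receptor's kinase, was at 19.2 and 13.9 FPKM under Laser, 20.1 and 22.9 under PC-La, and 13.9 and 19.0 under SePC-La.

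Irf1, an interferon regulatory factor that interferon-gamma induces, was at 31.8 and 26.5 FPKM under Laser, 40.9 and 50.3 under PC-La, and 42.4 and 41.2 under SePC-La. Both phycocyanin groups were above Laser for Irf1, by 0.62 ± 0.15 and 0.51 ± 0.15, and neither met the criterion. Irf8 of the myeloid lineage was at 5.55 and 5.41, 7.54 and 9.24, and 7.39 and 6.74 FPKM. Batf2, an interferon-induced partner of IRF1, differed by 0.99 ± 0.22 between PC-La and Laser, just outside the criterion.

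Of 4 feedback genes none met the criterion. Socs1, the main inhibitor of the receptor's kinases, was at 7.99 and 7.35 FPKM under Laser, 9.40 and 9.28 under PC-La, and 9.64 and 11.9 under SePC-La. Socs3 was at 69.5 and 36.9, 64.2 and 60.8, and 77.4 and 91.7 FPKM, highest in SePC-La, at 0.72 ± 0.29 above Laser, but at 1.17, within the criterion, without Laser replicate 1 and at 0.27 when Laser replicate 2 was left out. In Socs1 and Socs3 both SePC-La samples were thus above both PC-La samples.

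Among 23 other interferon-gamma targets, 9 met the criterion as higher in PC-La than in Laser and 6 as lower in SePC-La than in PC-La, and the median differences were 0.57, 0.62 (SePC-La against Laser) and -0.20. The 6 lower genes were H2-Eb1, H2-Aa, H2-Ab1, Cd74 and Ciita of antigen presentation by MHC class II, and Cybb of the phagocyte oxidase. H2-Eb1 was at 86.4 and 20.0 FPKM under Laser, 249 and 330 under PC-La, and 75.8 and 57.9 under SePC-La. Its SePC-La samples lay within the range of the Laser samples, and its differences were 2.75 ± 0.66 for PC-La against Laser and -2.10 ± 0.66 for SePC-La against PC-La. H2-Ab1 and H2-Aa differed by 2.56 ± 0.66 and 2.45 ± 0.53 between PC-La and Laser and by -1.85 ± 0.66 and -1.97 ± 0.53 between SePC-La and PC-La. The values against Laser depended on the Laser sample: over the samples left out, H2-Eb1 ran from 1.72 to 3.78, H2-Ab1 from 1.51 to 3.61 and H2-Aa from 1.61 to 3.29, the lowest each without Laser replicate 2. Between SePC-La and PC-La, H2-Eb1, H2-Ab1 and Cd74 missed the p of the criterion without any 1 of the 4 samples compared. H2-Aa missed it without PC-La replicate 2 or SePC-La replicate 2. In these fits the H2 genes had values from -2.30 to -1.75, and Cd74 from -1.91 to -1.54. H2-Ab1 also missed it with voom (-1.87) and among genes of at least 5 FPKM (-1.85). Against Laser, H2-Ab1 missed it without PC-La replicate 1 (2.66) or PC-La replicate 2 (2.46), and H2-Eb1 without PC-La replicate 2 (2.55). Cybb, at -1.03 ± 0.22, was at -0.93 with median-ratio scaling and outside the criterion.

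The 2 targets that met the criterion as higher in SePC-La than in Laser were Ido1 and Ubd, named after their values were seen. Ido1, which degrades tryptophan, was at 0.802 and 0.497 FPKM under Laser, 1.23 and 1.28 under PC-La, and 3.91 and 2.57 under SePC-La, and it was the SePC-La samples that stood apart (1.35 ± 0.22, or 2.16 with a pseudocount of 0.1). Ubd, a ubiquitin-like modifier, was at 8.54 and 8.58 FPKM under Laser, 16.5 and 22.8 under PC-La, and 20.8 and 17.7 under SePC-La. Ubd had equal differences from Laser of 1.09 ± 0.18 and 1.08 ± 0.18 in both phycocyanin groups, a pattern like that of Gbp5. Without PC-La replicate 2 the former was 0.87, and without SePC-La replicate 1 the latter was 0.96.

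Genes of the type I interferon response, which share ISRE elements with the GTPases, had a median difference of 0.86 between PC-La and Laser over 17 tested genes, of which 5 met the criterion. Their median was 0.49 for SePC-La against Laser and -0.44 for SePC-La against PC-La. Ifi44 was at 5.04 and 0.758 FPKM under Laser, 11.6 and 9.76 under PC-La, and 2.33 and 4.77 under SePC-La. Ifit3 was at 10.6 and 5.55, 23.7 and 25.0, and 7.77 and 16.3 FPKM. For both, PC-La was highest and SePC-La overlapped Laser. The differences between PC-La and Laser were 1.83 ± 0.61 for Ifi44, 1.54 ± 0.39 for Ifit3 and 1.41 ± 0.35 for Ifit1. Without Laser replicate 2, that of Ifi44 was 0.94 and that of Ifit1 was 1.00 and outside the criterion. Isg15, the only gene of this list at the criterion in SePC-La against Laser and named after its value was seen, differed by 1.24 ± 0.35, and by 0.69 without Laser replicate 2. Between PC-La and Laser, Isg15 differed by 1.18 ± 0.35, and by 0.63 without Laser replicate 2. Ifnb1, a ligand of this response, was at 0.171 FPKM or less in every sample.

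Genes that act with the GTPases were read last. The autophagy conjugation genes, which load IRG and GBP proteins onto vacuoles, had 10 tested members with a median difference of 0.12 between PC-La and Laser, and none met the criterion in any comparison. Unadjusted p-values under 0.05 were held by 0, 0 and 1 of them, the last being Gabarapl1 (-0.41 ± 0.14 for SePC-La against PC-La). The inflammasome genes had 5 tested members with a median of 0.29 between PC-La and Laser, none at the criterion, and 0, 1 and 1 of them had an unadjusted p under 0.05. Gsdmd, the pore-forming protein cut by inflammatory caspases, was at 33.3 and 17.7 FPKM under Laser, 40.9 and 35.4 under PC-La, and 19.5 and 29.1 under SePC-La. Nlrp3, an inflammasome sensor, was at 3.86 and 2.70, 3.47 and 3.10, and 5.58 and 4.46 FPKM, highest in SePC-La.

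Over all lists of the pathway, 83 genes that are not among the 10 were tested. The criterion was met by 22 as higher in PC-La than in Laser, by 3 as higher in SePC-La than in Laser and by 9 as lower in SePC-La than in PC-La, and by 0 in the opposite directions. The smallest adjusted p-values (limma) were 0.406, 0.376 and 0.0763, and unadjusted p-values under 0.05 were held by 42, 24 and 25 genes, where 5.78%, 12.1% and 24.3% of all genes held one. The shares of all genes at the criterion were 0.866%, 0.544% and 1.8%. Each of the counts 22, 3 and 9 rose or fell with the sample left out. The counts over all genes moved as well, and such fits leave 1 sample in a group.

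**Figure D5:**
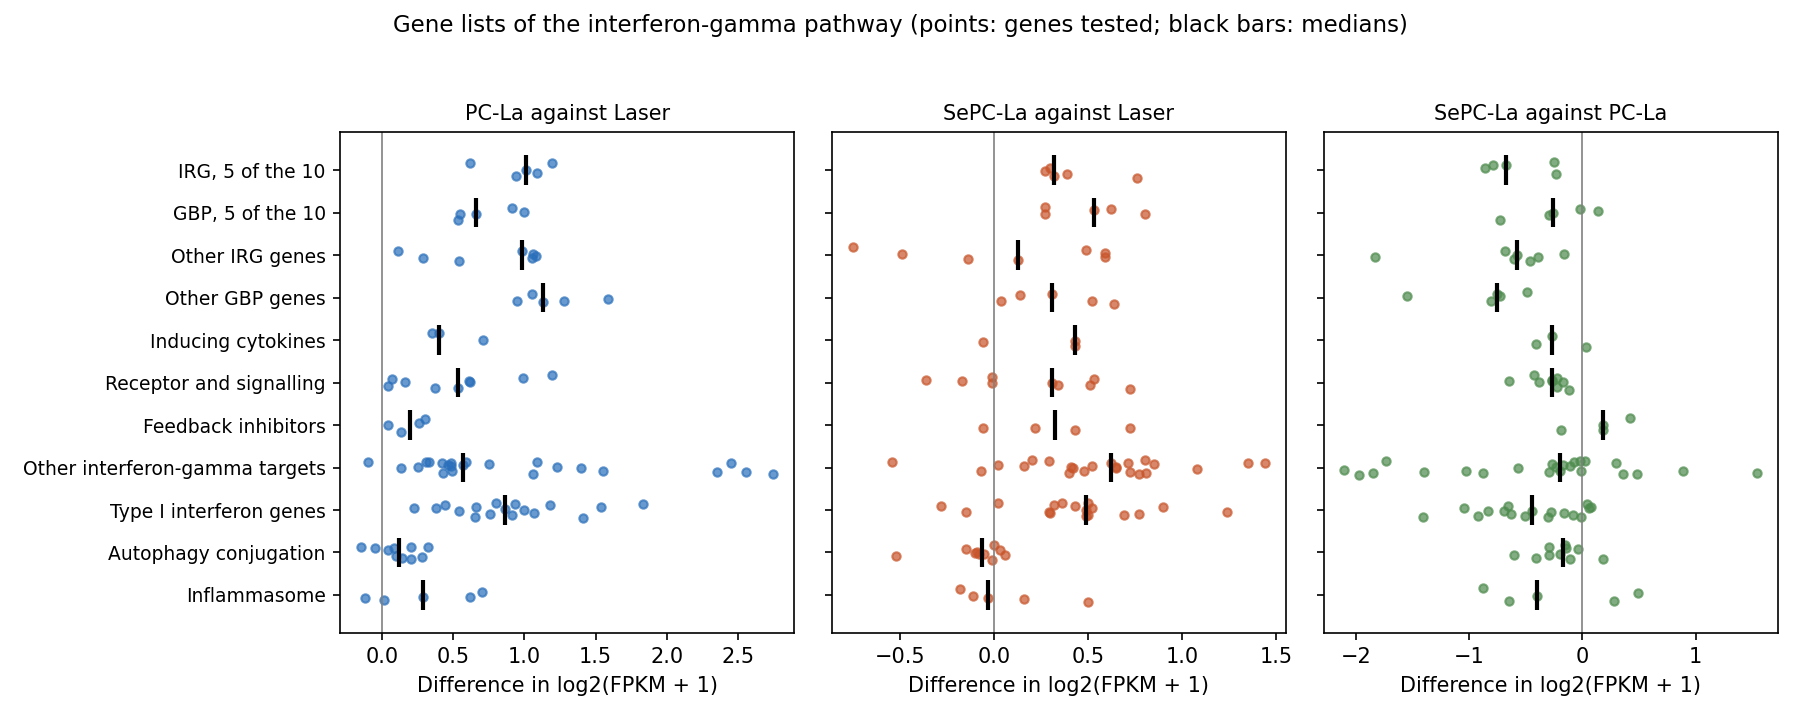
Differences in log2(FPKM + 1) for every tested gene of each list (points) with the median (black bar), in 1 panel per comparison with its own axis. For PC-La against Laser the medians are 1.01 and 0.66 for the 10 GTPase genes by family, 0.98 and 1.13 for the other family genes, and 0.12 for the autophagy conjugation genes.

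The genes whose pattern over the 6 samples was closest to the mean pattern of the 10, by the root mean square distance of centred log2(FPKM + 1) values among 7481 genes that averaged 5 FPKM or more, were Tgtp1 (0.103), Tgtp2 (0.110), Parp9 (0.139), Irf8 (0.158) and Il18bp (0.170). The median distance of all these genes was 0.414, and the 10 genes themselves lay between 0.075 and 0.314. Parp9, which acts in interferon signalling, was at 12.5 and 12.8 FPKM under Laser, 20.6 and 21.2 under PC-La, and 14.5 and 15.9 under SePC-La. Il18bp, a secreted inhibitor of interleukin 18, was at 4.04 and 4.83, 6.17 and 6.76, and 5.70 and 4.77 FPKM.

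Marker genes of cells that make or answer interferon-gamma moved in part with these patterns. Over 7 T cell genes the summed level was 12.3 and 4.61 FPKM under Laser, 14.2 and 11.2 under PC-La, and 5.01 and 14.4 under SePC-La. The groups overlapped, and Laser replicate 2 and SePC-La replicate 1 were the lowest samples. The 8 genes of natural killer and cytotoxic cells summed to 27.4 and 31.4, 59.7 and 34.9, and 18.1 and 38.1 FPKM. Gzma and Gzmb dominate this sum. Over the 5 tested genes of this list the median difference was 0.59 for PC-La against Laser. It was 0.08 for SePC-La against Laser and -0.61 for SePC-La against PC-La. None of the 5 tested genes of either list met the criterion.

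Over 8 macrophage genes the sum was 651 and 701 FPKM under Laser, 888 and 945 under PC-La, and 381 and 721 under SePC-La. Both PC-La samples were above all others in this sum, which the C1q genes dominate. Not all members had that order, and 5 of the 8 had differences above 0 for PC-La against Laser. Mrc1 was at 26.7 and 29.7 FPKM under Laser and 14.5 and 14.3 under PC-La (-0.92 ± 0.44). Itgam was at 10.6 and 14.8 and at 6.25 and 9.39 (-0.64 ± 0.27). Cd68 was at 57.1 and 78.8 and at 55.8 and 57.3 (-0.24 ± 0.20), and none of these met the criterion. Of the 8 genes, 2, C1qa (-1.01 ± 0.32) and C1qc (-1.01 ± 0.31), met the criterion as lower in SePC-La than in PC-La, with values of -0.49 and -0.52 without SePC-La replicate 1. Neither met it with median-ratio scaling (both -0.90) or without either PC-La replicate. The 6 dendritic cell genes summed to 17.7 and 12.7, 24.6 and 30.9, and 13.5 and 14.5 FPKM, a sum that Itgax and Clec9a dominate. Itgax was 1.54 ± 0.42 higher in PC-La than in Laser, or 0.92 without Laser replicate 2. Clec9a differed by only 0.14 ± 0.20 and Batf3 by 0.53 ± 0.27, neither at the criterion. Flt3, Xcr1 and Zbtb46 were under the filter. The 8 neutrophil genes summed to 165 and 42.3, 158 and 92.6, and 344 and 467 FPKM, highest in SePC-La. S100a8 and S100a9 dominate this sum, and S100a8 was 2.21 ± 0.48 above Laser in SePC-La. All 7 tested genes had differences above 0 for SePC-La against Laser, 3 at the criterion, beside 0.544% of all genes. Mmp8 differed from Laser by only 0.22 ± 0.30 in SePC-La, and by -1.36 ± 0.30, at the criterion, in PC-La. The groups of Mmp9 overlapped in every comparison. The 6 endothelial genes summed to 22.1 and 18.4, 23.0 and 30.1, and 32.8 and 25.2 FPKM, so both Laser sums lay below the others. Macrophages, dendritic cells and endothelium can express IRG and GBP genes, and the part of these cells in the levels of the 10 genes was not tested.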

How the data were processed

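The authors deposited 1 table of FPKM values for 6 samples of tumor RNA (2 per group). The submitters' processing notes name HISAT2 2.0.5, HTSeq 0.9.1, DESeq 1.30.0 and mm9. The table does not name its unit, which was settled from the values: with the exon lengths of GENCODE M21, the deposited FPKM gave whole reads (within 0.02 reads or 0.02% of the value) in all samples for 98.0% of expressed genes. The labels and the paper differ in the wavelength and the interval of injections, and those of the labels are given. Coordinates are those of GRCm38, not of mm9, and how reads shared by gene copies were counted is not given in the sources used here.

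Genes that averaged 1 FPKM or more were fitted on log2(FPKM + 1) with limma 3.58.1 (R 4.3.3), all 6 samples in 1 fit with a mean per group and eBayes with trend and robust estimation, and adjusted by Benjamini-Hochberg over all genes. The study's cut-offs (set for a test on counts) were applied to this fit, as a log2 difference over 1 and an unadjusted p under 0.05. The fit was tested on simulated data. The 10 genes and the gene lists were chosen with earlier results of these data known. Beside the 10, named genes were the upstream genes, the other family genes, up to 3 of each list with the largest differences, and the 5 nearest patterns. Alternatives were a pseudocount of 0.1, no filter or 5 FPKM, quantile normalization or median-ratio scaling, eBayes without the trend or without robust estimation, a fit of the 4 samples of a comparison alone, a replicate block, voom on recovered reads and each sample left out. Python 3.11.15 and matplotlib 3.10.9 drew the figures. Some single-gene results are not reported here; such genes still enter the fits and the counts of their lists.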

Additional observations from a re-analysis of the deposited data

How the results depend on the processing

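With 2 samples per group, results depended on single samples, and the counts at the criterion and by adjusted p depended also on the settings. Outside leaving samples out, 294 of 297 differences of the 10 genes over 10 alternatives kept their direction, and the exceptions were Gbp5 in SePC-La against PC-La (0.07 with median-ratio scaling and 0.07 with quantile normalization) and Gbp2 (-0.02 with quantile normalization). Leaving single samples out, 177 of 180 kept it, and the exceptions were Gbp2 (-0.01 without PC-La replicate 1, range up to 0.29) and Gbp5 (0.15 without PC-La replicate 2 and 0.03 without SePC-La replicate 2), both in SePC-La against PC-La. Over the fits with 1 sample left out, the median of the 10 genes ranged from 0.77 to 1.03 for PC-La against Laser. It ranged from 0.32 to 0.54 for SePC-La against Laser and from -0.43 to -0.20 for SePC-La against PC-La. The number of the 10 at the criterion ranged from 1 to 6, from 0 to 1 and from 0 to 1. It was 6 without Laser replicate 2, 5 without PC-La replicate 1 and 1 without PC-La replicate 2. The pathway genes at the criterion ranged from 7 to 30, from 2 to 16 and from 3 to 11. A minimum of 5 FPKM left 5 of the 9 pathway genes' count in SePC-La against PC-La, with 66 genes tested in place of 83. Over all genes, an adjusted p under 0.05 (limma) in SePC-La against PC-La was held by 0 in the fit reported, 3 with a minimum of 5 FPKM, 6 with median-ratio scaling, 8 with quantile normalization and 637 with only the 4 samples compared. Without Laser replicate 1, 312 genes held it for PC-La against Laser and 97 for SePC-La against Laser. The replicate numbers are not known to pair the samples: deviations from the group means correlated at 0.09 (Laser and PC-La), -0.43 (Laser and SePC-La) and -0.18 (PC-La and SePC-La). With a block for the replicate number, medians of the 10 genes were 0.93, 0.36 and -0.28, 3, 0 and 0 of them were at the criterion, and 22, 4 and 9 pathway genes were. The 10 genes held at least 247 reads per sample, the fewest in Gbp6. Irgq in PC-La against Laser changed sign without Laser replicate 2 (-0.07, range up to 0.29).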
